A study of Mus musculus with 18 samples.

Results

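The NR4A and EGR genes are 2 small families of immediate-early transcription factor genes, and 6 of them were examined here by gene symbol: Nr4a1, Nr4a2, Nr4a3, Egr1, Egr2 and Egr3. They are 6 of the 22852 genes counted in each of 18 samples of mouse bone marrow-derived macrophages (BMDMs). The set was chosen by symbol, but with measured values in view: Nr4a2 stood out among the genes higher with carboplatin in LPS-primed BMDMs, so the values of that comparison are given as a description with no test. The LPS-primed samples with and without carboplatin also enter other comparisons, and the Nr4a2 values there carry the same limit. Of the 6 genes, 5 passed the filter on low counts, and Egr3 did not and is given by its read counts. The related gene Egr4 had 0 reads in all 18 samples.

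BMDMs of female C57BL/6 mice were grown in medium with L929 cell-conditioned medium and fell into 6 groups of 3 biological replicates. Unstimulated BMDMs received neither agent. LPS-primed BMDMs were kept for 24 h with LPS at 100 ng/ml. LPS-tolerant BMDMs had the same treatment followed by fresh medium with LPS at 10 ng/ml for 3 h. LPS-stimulated BMDMs, the control for tolerance, had the 10 ng/ml dose for 3 h and no priming, a duration that comes from the treatment scheme and not from the labels. The LPS-primed + carboplatin and LPS-tolerant + carboplatin groups also had 25 µM carboplatin, a platinum drug that crosslinks DNA. The methods put carboplatin before the first LPS and the sample labels name it after LPS. The medium change came together with the second LPS, and their effects cannot be told apart. In bulk RNA, fewer cells of a type and less RNA per cell cannot be told apart.

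Immediate-early genes are transcribed within minutes of a stimulus from signals already in the cell, and their mRNAs are usually short-lived. NR4A proteins (Nr4a1 or NUR77, Nr4a2 or NURR1, Nr4a3 or NOR1) are orphan nuclear receptors that bind an 8-base element, the NBRE, and restrain NF-κB target genes in macrophages. EGR proteins are zinc-finger factors that bind a GC-rich site and recruit the corepressors NAB1 and NAB2. Toll-like receptor 4, the LPS receptor, reaches these promoters through ERK, p38 and CREB: CREB binds the cyclic AMP response element (CRE), and ERK-activated ternary complex factors bind with SRF at CArG boxes.

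Upstream sequences are shown because the inputs named above bind such sequences, and the genes shown were not picked by their response. RefSeq windows of 250 bases upstream, from a GRCm38.p6 table, were on hand for Nr4a1, Nr4a2, Nr4a3 and Egr2 and were placed on GRCm39 by an exact match. Only bases before the first annotated exon base are printed, 5′ to 3′ on the gene's strand, with CRE half-sites (TGACG on either strand) and the CArG box in capitals. The Nr4a2 window lay wholly within an annotated exon and is not printed. Its RefSeq start was 7769 bases from the start of the GENCODE canonical transcript. The RefSeq starts of Egr2, Nr4a1 and Nr4a3 were 7, 67 and 152 bases from theirs. The coordinates are Egr2 chr10:67373449-67373691, Nr4a1 chr15:101164477-101164656 and Nr4a3 chr4:48045055-48045152, all on the plus strand. Those of Egr2 and Nr4a1 lie inside the span of longer annotated transcripts of the same gene, and that of Nr4a3 lies just upstream of its gene.
Egr2 upstream: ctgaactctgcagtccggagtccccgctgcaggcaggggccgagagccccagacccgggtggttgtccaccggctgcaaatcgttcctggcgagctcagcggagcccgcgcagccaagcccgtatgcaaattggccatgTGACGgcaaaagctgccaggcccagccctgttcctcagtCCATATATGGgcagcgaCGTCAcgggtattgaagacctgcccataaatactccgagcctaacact
Nr4a1 upstream: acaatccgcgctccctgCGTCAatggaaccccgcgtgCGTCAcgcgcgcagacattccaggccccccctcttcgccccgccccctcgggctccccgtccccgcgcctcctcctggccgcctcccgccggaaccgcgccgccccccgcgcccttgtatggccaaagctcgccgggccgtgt
Nr4a3 upstream: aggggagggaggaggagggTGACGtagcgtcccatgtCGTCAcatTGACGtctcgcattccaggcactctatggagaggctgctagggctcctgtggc

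All 4 windows held CRE half-sites. Nr4a1, Nr4a2 and Nr4a3 held 4 each within 250 bases and Egr2 held 2, whereas 0.688% of 32851 RefSeq windows of this length held 3 or more, 3.9% held 2 or more and 17.8% held at least 1. Half-sites that overlapped on the 2 strands would each have been counted. Egr2 alone of the 4 had a CArG box, at -72 from the RefSeq start, and 1.47% of the windows had at least 1. Nr4a1 and Nr4a2 each had 1 EGR site (GCGNGGGCG on either strand, 4.7% of windows), which did not overlap a half-site. The NBRE (AAAGGTCA on either strand, 1.34% of windows) and a κB site (3.9% of windows) were not among the letters of the 4 windows. These matches are descriptions of sequence and not of binding.

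**Figure D1:**
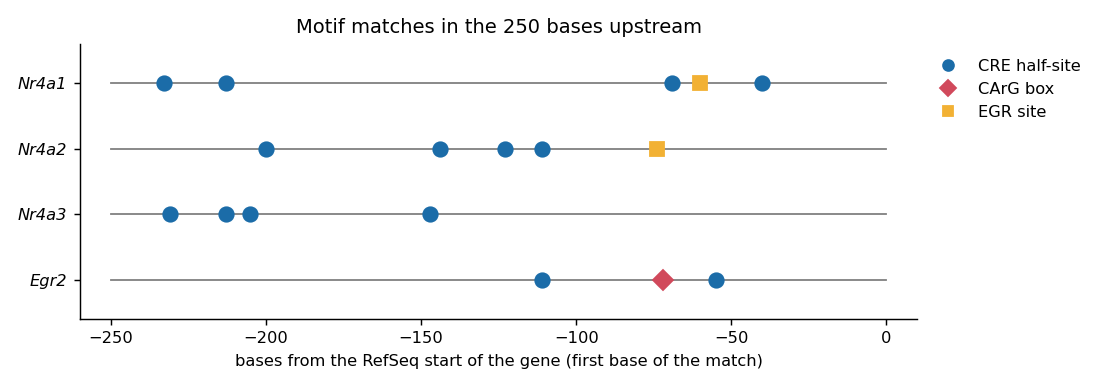
Positions of motif matches in the 250 bases upstream of the RefSeq starts of Nr4a1, Nr4a2, Nr4a3 and Egr2. That of Nr4a2 lies 7769 bases from the start of its GENCODE canonical transcript. The x axis gives the first base of each match in bases from the RefSeq start, circles mark CRE half-sites, the diamond the CArG box at -72 of Egr2, and squares the EGR sites of Nr4a1 and Nr4a2. Each of the NR4A genes holds 4 half-sites and Egr2 holds 2.

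Between 6869667 and 14708099 reads per sample (median 8986463) were counted on genes, and members had from 0 to 861 reads per sample, so counting error is wide for Nr4a2, Nr4a3, Egr1 and Egr3. The replicate 1 libraries stood apart: 0.103 to 0.175% of their reads had been set aside as ambiguous between genes, against 0.231 to 0.286% in the other 12, and in LPS-stimulated BMDMs replicate 1 was the highest of the 3 for all 6 members. The part of this in the results was not tested, and the calls that change without these libraries are given with their values. The macrophage label fitted the data, with all 10 macrophage markers read in every group and Csf1r at 14907 to 30011 reads. The 10 macrophage markers summed to 14224 to 18199 CPM (reads scaled to the library's total) in LPS-stimulated, 19428 to 21973 in unstimulated and 23968 to 31138 CPM in the other samples. Lymphocyte, dendritic cell and erythroid markers each summed to at most 2.38 CPM in any sample, with Cd3e at 0 reads throughout. The 10 neutrophil markers summed to 5.59 to 16.9 CPM in unstimulated and LPS-stimulated samples and to 28.8 to 336.7 CPM in the other groups, led by Mmp8, while Ly6g and Mpo had 0 reads in all samples. The 9 stromal markers summed to 0.825 to 0.935 CPM in unstimulated samples and 5.53 to 17.8 CPM in the LPS-treated groups, led by Cdh5 in LPS-stimulated and Dcn in the other groups, and the 7 mast cell markers summed to 1.34 to 5.00 CPM in unstimulated, 0.792 to 1.29 CPM in LPS-stimulated and at most 0.209 CPM in the other samples, all from Kit. These lists moved with the LPS groups, and their part in the members' values was not tested.

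In levels, given as counts normalized to the mean effective library size, Egr2 was the most abundant member where it was high. Egr2, which is also active in myeloid and Schwann cell differentiation, was at 60.2, 37.7 and 30.9 normalized counts in the 3 unstimulated samples and at 1027, 449.7 and 414.1 in the LPS-stimulated samples. In LPS-primed samples it was at 5.29, 6.84 and 5.63 normalized counts, and in LPS-tolerant samples at 21.5, 24.2 and 11.3. Thus every LPS-stimulated sample lay above every other sample, and every unstimulated sample lay above every LPS-tolerant sample. LPS-tolerant BMDMs held 3.02% of the mean Egr2 level of LPS-stimulated BMDMs.

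Nr4a3 was close to absent outside the groups that had just received LPS at 10 ng/ml. It had 1, 0 and 0 reads in unstimulated samples and 0 reads in all 6 LPS-primed samples, with or without carboplatin. In LPS-stimulated samples it had 289 reads, at 134.8, 69.9 and 73.9 normalized counts. In LPS-tolerant samples it had 5, 3 and 6 reads, and in LPS-tolerant + carboplatin samples 8, 1 and 3. The LPS-tolerant mean was 5.42% of the LPS-stimulated mean, and the groups did not overlap.

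Nr4a1, the member most studied in macrophages and thymocytes, was at 32.5, 53.3 and 49.99 normalized counts in unstimulated samples. It was at 9.53, 7.98 and 3.75 in LPS-primed samples, at 144.3, 36.3 and 55.6 in LPS-tolerant samples and at 270.8, 93.4 and 100.6 in LPS-stimulated samples. The LPS-primed samples were below all samples of the other groups. The LPS-tolerant and LPS-stimulated samples overlapped, with replicate 1 the highest in both groups, and the LPS-tolerant mean was 50.8% of the LPS-stimulated mean.

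Egr1, the prototype of its family, was at 10.5, 22.9 and 13.6 normalized counts in unstimulated samples and at 12.7, 16.0 and 12.2 in LPS-primed samples. It was at 41.8, 32.8 and 73.1 in LPS-tolerant and at 112.2, 31.1 and 21.7 in LPS-stimulated samples. Every LPS-tolerant sample lay above every unstimulated and LPS-primed sample. In LPS-stimulated BMDMs the mean of 55.0 ± 49.7 (SD, n = 3) rested on replicate 1, and replicate 3 lay within the unstimulated range.

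Nr4a2, known best for dopaminergic neurons and as an LPS-inducible gene of macrophages and microglia, was low in every group. It had 6, 7 and 4 reads in unstimulated samples, 1, 5 and 9 in LPS-primed samples, 10, 12 and 7 in LPS-tolerant samples and 21, 13 and 10 in LPS-stimulated samples. With carboplatin it had 18, 26 and 15 reads in LPS-primed and 23, 18 and 15 in LPS-tolerant samples. These are the groups with its highest means, 21.3 ± 5.36 and 21.5 ± 8.23 normalized counts (SD, n = 3), although both overlapped the LPS-stimulated group at 14.6 ± 9.03. Egr3 had 29 reads in all 18 samples together, of which 14, 0 and 5 were in LPS-stimulated samples and at most 3 in any other sample.

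**Figure D2:**
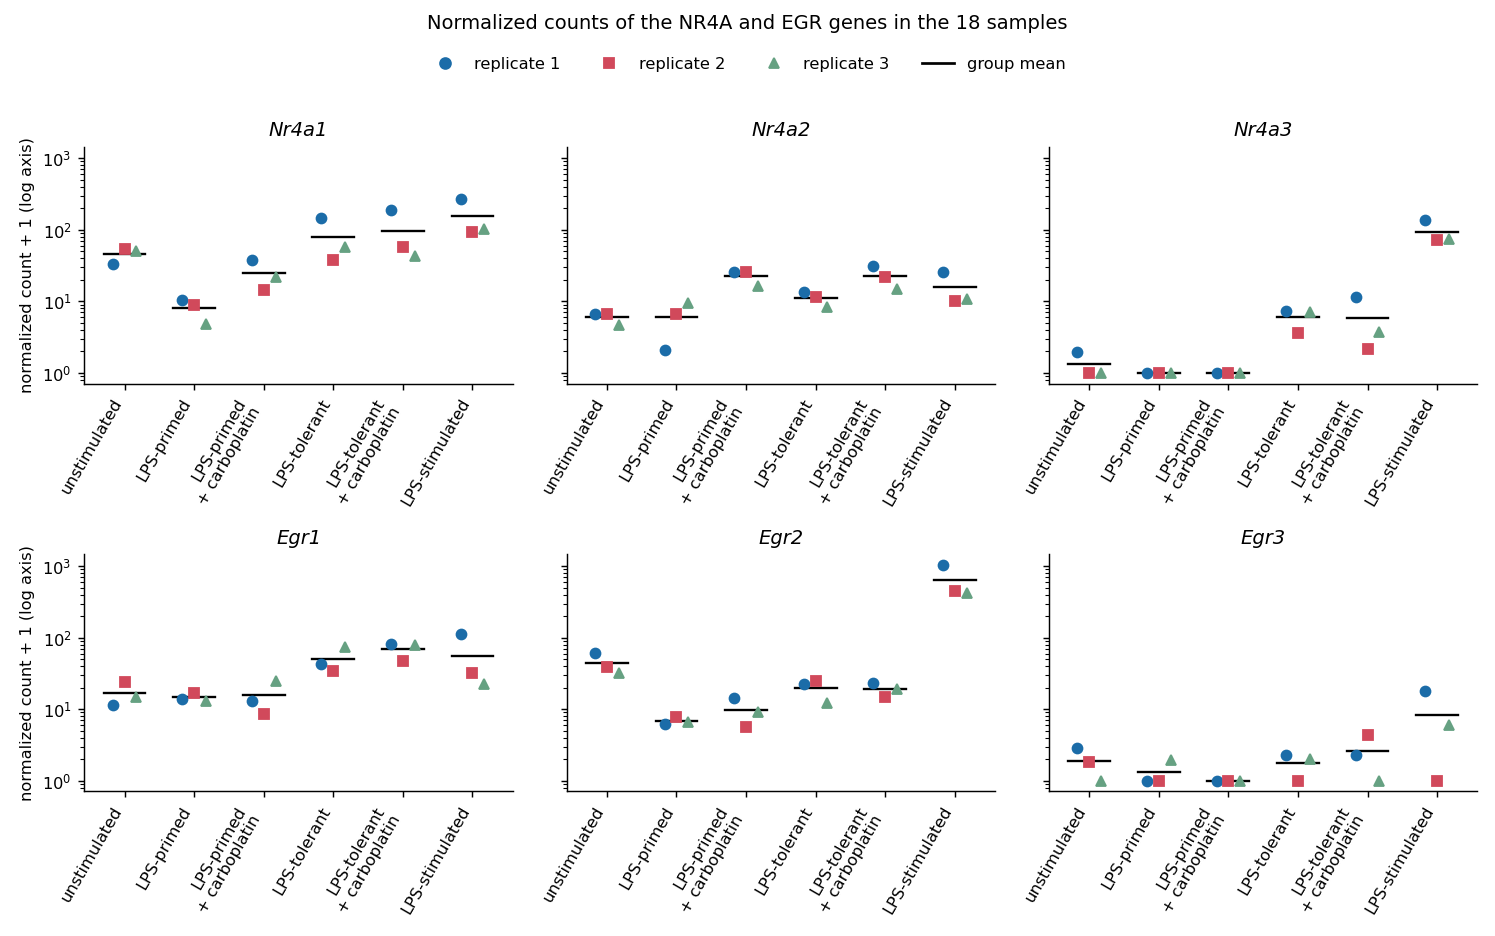
Normalized counts of the 6 genes in all 18 samples, plotted as count + 1 on a log axis, by group. Symbols mark replicates 1 to 3 and the bar the group mean. Egr2 and Nr4a3 were highest in the 3 LPS-stimulated samples. Nr4a1 was lowest in the 3 LPS-primed samples, and the mean of Egr2 was lowest in that group.

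The order of the group means differed between members. For Nr4a1 the order was LPS-stimulated, LPS-tolerant + carboplatin, LPS-tolerant, unstimulated, LPS-primed + carboplatin and LPS-primed, and only the last neighbours did not overlap. For Egr2 it was LPS-stimulated, unstimulated, LPS-tolerant, LPS-tolerant + carboplatin, LPS-primed + carboplatin and LPS-primed, and the groups with and without carboplatin overlapped while the other neighbours did not. For Egr1 the order was LPS-tolerant + carboplatin, LPS-stimulated, LPS-tolerant, unstimulated, LPS-primed + carboplatin and LPS-primed, and only LPS-tolerant and unstimulated did not overlap. For Nr4a2 no neighbouring groups were free of overlap, and LPS-tolerant + carboplatin came first and unstimulated last.

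On a scale of normalized counts per kilobase of the GENCODE canonical transcript, which allows levels of different genes to be compared, the make-up of the families shifted with LPS. The summed NR4A level was 18.9 per kilobase in unstimulated, 3.84 in LPS-primed, 80.1 in LPS-stimulated and 33.9 in LPS-tolerant BMDMs. Nr4a1 made up 94.1% of that sum in unstimulated BMDMs, 91.2% with tolerance and 75.9% in LPS-stimulated BMDMs, where Nr4a3 made up 20.3%. The summed EGR level was 18.1 per kilobase in unstimulated, 5.09 in LPS-primed, 226.0 in LPS-stimulated and 17.5 in LPS-tolerant BMDMs. Egr2 made up 79.6% of it in unstimulated and 93.9% in LPS-stimulated BMDMs, whereas Egr1 made up 62.5% in LPS-tolerant BMDMs.

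**Figure D3:**
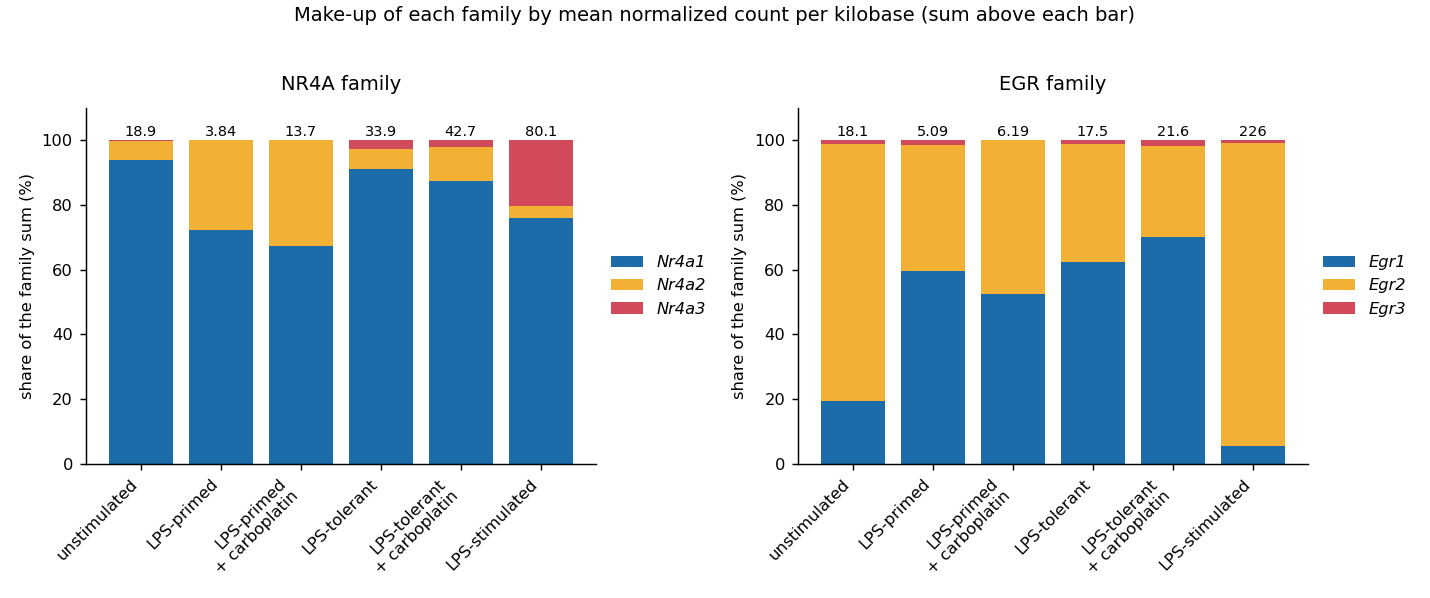
Share of each gene in the summed mean level of its family (%), by group, with the sum in normalized counts per kilobase above each bar. Nr4a1 led the NR4A family in every group, and the leading EGR gene was Egr2 in unstimulated (79.6%) and LPS-stimulated BMDMs (93.9%) and Egr1 in the other groups.

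The response to a first, short LPS exposure was asked by comparing LPS-stimulated with unstimulated BMDMs. All 5 tested members were higher (adjusted p under 0.05, edgeR), in an experiment where 24.3% of 11305 tested genes were higher and 26.9% lower. Among those above the floor of 3 reads in both groups Egr2 rose the most, 14.7-fold (log2FC 3.87, SE 0.39, adjusted p = 4.08e-07). Nr4a3 rose from 1 read in all 3 unstimulated samples to 289, a ratio of 295.0 per effective library (95% interval 52.5 to 11692 from the exact binomial test, for counting error only), with an adjusted p of 1.06e-05 from edgeR. Nr4a1 rose with a log2FC of 1.76 (SE 0.60, adjusted p = 0.0211), Egr1 with 1.77 (SE 0.57, adjusted p = 0.0155) and Nr4a2 with 1.48 (SE 0.58, adjusted p = 0.0432). All 5 were higher in 3 of 3 pairs, and only the Egr1 groups overlapped.

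The calls of Nr4a1, Egr1 and Nr4a2 were lost when LPS-stimulated replicate 1 or unstimulated replicate 1 alone was left out. Without LPS-stimulated replicate 1 their log2FC were 1.10, 0.75 and 0.89 with adjusted p of 0.139, 0.212 and 0.229, and without unstimulated replicate 1 they were 1.59, 1.57 and 1.59 with adjusted p of 0.0700, 0.0559 and 0.0704. Without replicate 1 of any group, Nr4a1 was still higher (0.91, adjusted p = 0.0391), and Egr1 (0.54, adjusted p = 0.447) and Nr4a2 (0.98, adjusted p = 0.173) did not pass. The call of Nr4a2 was also lost without unstimulated replicate 2 (adjusted p = 0.0745) or 3 (0.119). Egr2 and Nr4a3 kept their calls in each of these fits. Egr3 had 19 reads in LPS-stimulated and 3 in unstimulated samples, a ratio of 6.47 (95% interval 1.90 to 34.1, counting error only), with the groups overlapping.

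The state after 24 h of LPS was asked by comparing LPS-primed with unstimulated BMDMs, a comparison that shares the unstimulated samples with the previous one. Egr2 and Nr4a1 were lower, 2 of 5 tested members, where 12.1% of genes were higher and 13.1% lower. Egr2 fell by 2.84 on the log2 scale (SE 0.49, adjusted p = 0.000311 from edgeR), a 7.14-fold lower level, and Nr4a1 fell by 2.68 (SE 0.74, adjusted p = 0.0127), a 6.40-fold lower level. Both were lower in 3 of 3 pairs with no overlap. Without LPS-primed replicate 3 the Nr4a1 value was -2.35 with an adjusted p of 0.0628. The log2FC of Nr4a2 was 0.02 (95% interval -1.32 to 1.37) and that of Egr1 was -0.22 (-1.51 to 1.07), and Nr4a3 was at the floor in both groups.

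Tolerance itself was asked by comparing LPS-tolerant with LPS-stimulated BMDMs, which had the same last LPS dose. Egr2 and Nr4a3 were lower, 2 of 5 tested members, where 18.3% of genes were lower and 16.2% higher. Egr2 fell by 5.04 on the log2 scale (SE 0.42, adjusted p = 1.27e-07 from edgeR), a 32.8-fold lower level. Nr4a3 fell by 4.21 (SE 0.65, adjusted p = 0.000242), an 18.4-fold lower level, and neither call was lost when a library was left out. Nr4a1 was lower in 3 of 3 pairs, but its value of -0.98 did not pass (SE 0.58, adjusted p = 0.211). With the replicate number as a block it was -1.01 (SE 0.38, adjusted p = 0.0354), which made 3 of 5 members lower where 24.7% of genes were, and without LPS-tolerant replicate 1 it was -1.74 (adjusted p = 0.0473). Without LPS-stimulated replicate 1 it was -0.32 (adjusted p = 0.718), and without replicate 1 of any group -1.08 (adjusted p = 0.0294). Egr1 and Nr4a2 did not pass, with log2FC of -0.14 (95% interval -1.26 to 0.98) and -0.50 (-1.67 to 0.66). Without LPS-stimulated replicate 1 the Egr1 value was 0.88 and that of Nr4a2 was 0.090, both of the opposite sign.

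The response of tolerant BMDMs to the 10 ng/ml dose was asked by comparing LPS-tolerant with LPS-primed BMDMs, a comparison that shares the LPS-tolerant samples with the previous one. Nr4a1 and Nr4a3 were higher, 2 of 5 tested members, where 3.6% of genes were higher and 2.71% lower. Nr4a1 rose 10.96-fold (log2FC 3.45, SE 0.74, adjusted p = 0.00923 from edgeR) and was higher in 3 of 3 pairs. Nr4a3 went from 0 reads to 14 in the 3 samples, at least 1.61-fold higher than the floor of 3 reads per library (adjusted p = 0.0487), and its call was lost when any of the 6 libraries was left out (adjusted p 0.0568 to 0.130). Without LPS-primed replicate 3 the Nr4a1 value was 3.13 with an adjusted p of 0.0612, and without LPS-tolerant replicate 1, the highest of its group, it was 2.69 (adjusted p = 0.0466). The log2FC was 1.85 for Egr1 (SE 0.59, adjusted p = 0.0712) and 1.67 for Egr2 (SE 0.52, adjusted p = 0.0681), each higher in 3 of 3 pairs with no overlap. With the replicate block both passed, Egr1 at 1.83 (adjusted p = 0.0320) and Egr2 at 1.70 (adjusted p = 0.00756), so that 4 of 5 members were higher where 9.67% of genes were. Nr4a2 had a log2FC of 0.95 (95% interval -0.34 to 2.24).

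Whether the second response differed from the first was asked by the difference between these responses, LPS-tolerant minus LPS-primed against LPS-stimulated minus unstimulated. Egr2, 1 of 5 members fitted, had a difference that passed, where 10.5% of genes had a positive and 13.3% a negative one. The difference is signed, so a positive value also covers a fall that was weaker the second time. Nr4a3 could not be assessed because its LPS-primed and unstimulated groups were at the floor. The Egr2 response was 3.87 the first time and 1.67 the second, a difference of -2.20 on the log2 scale (SE 0.68, adjusted p = 0.0263 from edgeR). With limma-voom it was -2.22 (adjusted p = 0.108). The edgeR call was lost without LPS-primed replicate 1, 2 or 3, LPS-tolerant replicate 3 or unstimulated replicate 3, with adjusted p from 0.0507 to 0.0772 and differences from -2.27 to -1.93. The Nr4a1 response was 1.76 the first time and 3.45 the second, and the difference of 1.69 (95% interval -0.30 to 3.69) had an adjusted p of 0.224. It was 0.92 without LPS-tolerant replicate 1 and 2.36 without LPS-stimulated replicate 1, with adjusted p of 0.528 and 0.0736. Without replicate 1 of any group it was 2.08 (adjusted p = 0.0202), a fit chosen after the data were seen. With all samples and the replicate block in edgeR it was 1.89 (SE 0.66, adjusted p = 0.0326). The second LPS-tolerant response thus started from LPS-primed levels of Egr2 and Nr4a1 that were below those of unstimulated cells. For Egr1 the difference was 0.08 (95% interval -1.60 to 1.76) and for Nr4a2 -0.53 (-2.33 to 1.27).

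**Figure D4:**
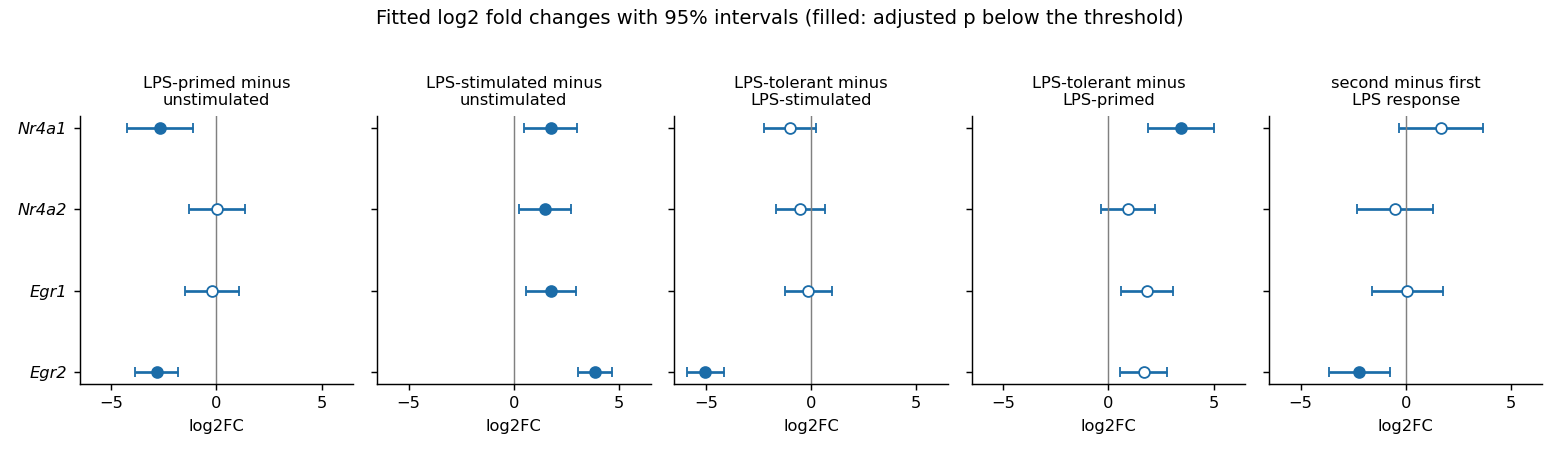
Log2FC of Nr4a1, Nr4a2, Egr1 and Egr2 in 4 comparisons and the difference between the second and the first LPS response, on the x axis, with 95% intervals. Filled points have an adjusted p under 0.05. Nr4a3 is left out because a group at the floor gives no fold, which holds for each comparison shown except LPS-tolerant against LPS-stimulated, where its log2FC was -4.21. The Egr2 values of 3.87 and -5.04 lie farthest from 0.

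In LPS-primed BMDMs, the values with carboplatin were among those the set was chosen by and are given without a test. Nr4a2 was at 24.3, 24.4 and 15.1 normalized counts with carboplatin and at 1.06, 5.70 and 8.44 without, so the groups did not overlap. Its log2FC was 2.02 (SE 0.58), with values from 1.56 to 2.63 when a library was left out and 1.46 without replicate 1 of any group. The LPS-primed replicate 1 sample, with 1 read, was the lowest for this gene. Nr4a1 was at 36.5, 13.2 and 21.1 normalized counts with carboplatin, above the 3 samples without it, and its log2FC was 1.70 (SE 0.78). Egr1 had a log2FC of 0.11 (SE 0.63) and Egr2 of 0.50 (SE 0.59), with overlapping groups, and Nr4a3 had 0 reads in all 6 samples. At an adjusted p under 0.25, the threshold the study used for carboplatin, 1 of 5 members was higher and none lower, where 0.0973% of genes were higher and 1.11% lower, and nothing is read from that count.

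In LPS-tolerant BMDMs the effect of carboplatin was tested. The set was not chosen by these values, although earlier results of these data were known when it was chosen. None of the 5 members passed at an adjusted p under 0.25 with edgeR, 0 had an unadjusted p under 0.05, and DESeq2 and limma-voom also called 0, where 0.239% of genes were higher and 1.42% lower. Nr4a2 was at 30.2, 20.5 and 13.8 normalized counts with carboplatin and at 12.7, 10.4 and 7.21 without. It was higher in 3 of 3 pairs with no overlap, with a log2FC of 1.08 (SE 0.54, 95% interval -0.07 to 2.22, adjusted p = 0.780). The log2FC of Nr4a1 was 0.28 (95% interval -0.97 to 1.52), of Egr1 0.47 (-0.65 to 1.58), of Egr2 -0.08 (-1.03 to 0.87) and of Nr4a3 -0.11 (-1.78 to 1.57). At 12 and 14 Nr4a3 reads in these groups, a moderate change was not detectable.

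**Figure D5:**
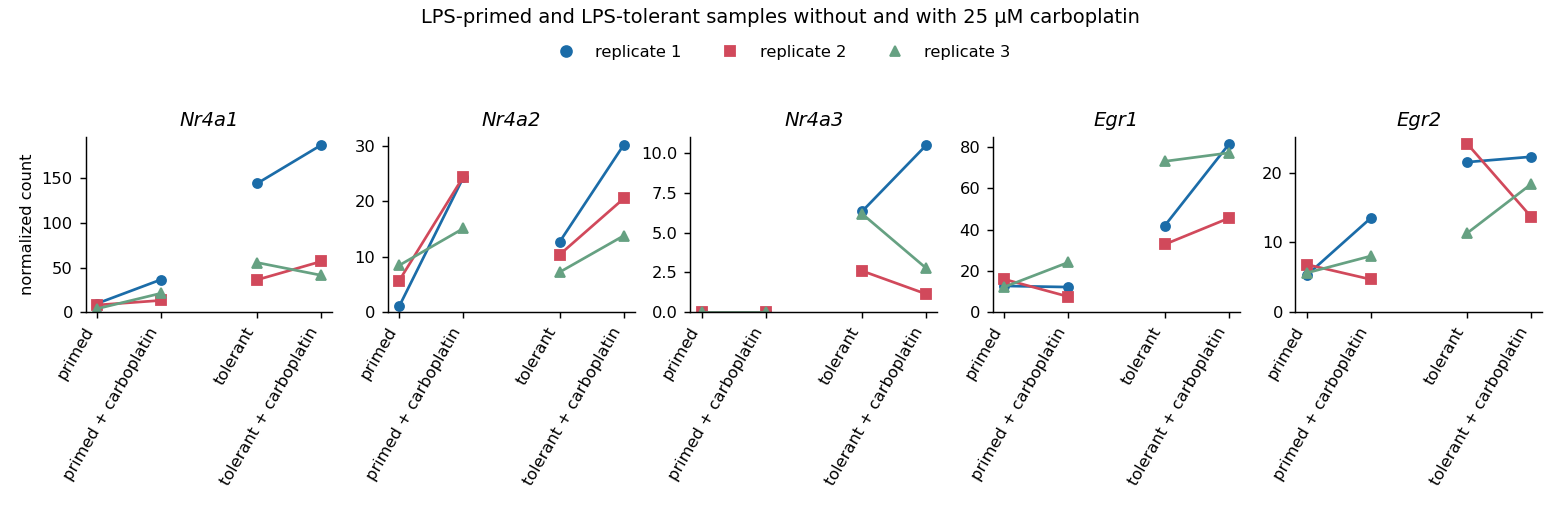
Normalized counts (y axis, linear, a scale for each gene) of 5 genes in LPS-primed and LPS-tolerant samples without and with 25 µM carboplatin. Lines join samples of the same replicate number. Nr4a2 was higher with carboplatin in all 3 pairs of both states, and Nr4a3 was at 0 in all LPS-primed samples.

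The carboplatin effect in LPS-tolerant minus that in LPS-primed BMDMs was -0.95 for Nr4a2 (95% interval -2.63 to 0.73) and -1.43 for Nr4a1 (-3.50 to 0.64), given without a test. Over all 11305 genes, 0% were called higher and 0% lower in this difference by edgeR, 131 had an unadjusted p under 0.05, and DESeq2 and limma-voom called 0. Among cells given carboplatin, LPS-tolerant and LPS-primed BMDMs differed in 0 of 5 members by edgeR, where 1.29% of genes were higher and 0.69% lower. In that comparison 4 members had an unadjusted p under 0.05, DESeq2 called 3 where 2.78% of genes were higher, and limma-voom called 0. The log2FC of Egr1 was 2.21 (SE 0.58, adjusted p = 0.0616), of Nr4a1 2.03 (SE 0.64, adjusted p = 0.126) and of Egr2 1.09 (SE 0.51, adjusted p = 0.333), each higher in 3 of 3 pairs, and Nr4a3 went from 0 to 12 reads, at least 1.45-fold (adjusted p = 0.106). Without LPS-tolerant + carboplatin replicate 1 the Nr4a1 value was 1.08 (adjusted p = 0.500). With the replicate block Egr1 (2.19, adjusted p = 0.0184), Nr4a1 (1.87, adjusted p = 0.0114) and Nr4a3 (adjusted p = 0.0272) passed, 3 of 5 members where 5.28% of genes were higher. For Nr4a2 the log2FC was 0.00 (95% interval -1.12 to 1.13). It is given as a description, since the set was chosen with the LPS-primed + carboplatin values of this gene in view.

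Other immediate-early genes gave a background for the members, with 38 of 42 listed genes tested. This list and those below were chosen with earlier results of these data known, so their counts and medians are descriptions. In LPS-stimulated against unstimulated BMDMs 26 rose and 6 fell, where 24.3% and 26.9% of all genes did. The median log2FC of the list was 2.90 against -0.09 over all genes. Those that rose most were Ptgs2 (COX-2) at 10.7, Dusp2, a phosphatase of MAP kinases, at 7.78 and Tnfaip3 (A20), an inhibitor of NF-κB signalling, at 7.02, and Rgs2, a regulator of G-protein signalling, fell by 3.95. In LPS-primed against unstimulated BMDMs 19 rose and 3 fell (12.1% and 13.1% of all genes), with a median of 0.79 against -0.02. Egr2 and Nr4a1 were lower there. In LPS-tolerant against LPS-stimulated BMDMs 8 rose, among them Jun at 2.66 and Klf4 at 2.19, where 16.2% of all genes did. Of the list, 17 fell, among them Dusp2 at -7.50 and Gadd45b at -4.12, where 18.3% did, and the median was -0.40 against 0.00. In LPS-tolerant against LPS-primed BMDMs 9 rose, led by Fosl1 at 3.89 and Myc at 3.74, and 4 fell, with a median of 0.52 against -0.01. Of all genes, 3.6% rose and 2.71% fell there. The second response minus the first was called positive in 7, among them Rgs2 at 4.63 and Atf3 at 2.12. Another 17 had a negative call, among them Ptgs2 at -9.48 and Dusp2 at -7.05. Of all genes, 10.5% had a positive and 13.3% a negative call, and the median difference of the list was -1.63 against 0.06. With carboplatin, Fos rose by 0.91 in LPS-primed BMDMs (adjusted p = 0.171 from edgeR, 1 of 38), where 0.0973% of all genes rose. In LPS-tolerant BMDMs edgeR, DESeq2 and limma-voom called 0 of 38, with 1 gene at an unadjusted p under 0.05. With the replicate block, 7 of 38 were called in LPS-primed and 2 in LPS-tolerant BMDMs, where 890 and 784 of 11305 genes were. Among cells given carboplatin, 6 rose and 2 fell from LPS-primed to LPS-tolerant, led by Myc at 3.67, where 1.29% and 0.69% of all genes did.

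Of the signal inputs to these promoters, all 20 listed genes were tested. In LPS-stimulated against unstimulated BMDMs 9 rose and 4 fell, where 24.3% and 26.9% of all genes did. Map3k8, the TPL2 kinase that activates ERK downstream of TLR4, rose by 2.83 (adjusted p = 4.46e-07) and Cebpb by 3.31, and Mrtfa, an SRF coactivator, fell by 2.26. In LPS-tolerant against LPS-stimulated BMDMs Map3k8 fell by 2.92 (adjusted p = 7.56e-07) and Crtc2, a CREB coactivator, by 1.38. Of the list, 2 genes were higher and 4 lower, where 16.2% and 18.3% of all genes were. For Map3k8 the second response minus the first was -3.52 (adjusted p = 4.54e-06). This difference was called negative in 6 genes (13.3% of all genes) and positive in 2 (10.5% of all genes), Mrtfa and Rps6ka1. Both of the latter fell in LPS-stimulated against unstimulated BMDMs, and neither was called from LPS-primed to LPS-tolerant. In LPS-primed against unstimulated BMDMs 4 rose, among them Crem, which encodes CREB-family activators and repressors, at 1.58, and 1 fell. Of all genes, 12.1% rose and 13.1% fell there. From LPS-primed to LPS-tolerant 1 fell, Mapk14 (p38α) by 0.97, with and without carboplatin, where 0.69% and 2.71% of all genes fell. In both carboplatin comparisons edgeR, DESeq2 and limma-voom called 0 of 20, and 1 gene in each had an unadjusted p under 0.05. With the replicate block, 1 of 20 was called in LPS-primed and 0 in LPS-tolerant BMDMs, where 890 and 784 of 11305 genes were.

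Of the partners and corepressors, 16 of 17 listed genes were tested. Nab2, an EGR corepressor that EGR proteins also induce, was at 315.2 ± 29.7 normalized counts in unstimulated, 312.8 ± 163.4 in LPS-stimulated, 488.5 ± 22.5 in LPS-primed and 845.5 ± 113.7 in LPS-tolerant BMDMs (SD, n = 3). Against LPS-stimulated BMDMs, the LPS-tolerant level was higher by a log2FC of 1.43 (SE 0.30, adjusted p = 0.00126), the reverse of Egr2. Nab1, the related corepressor, was at 489.7 ± 82.1, 841.6 ± 140.2, 979.4 ± 64.1 and 1372 ± 44.6 normalized counts in the same order, and its difference in that comparison was 0.70 (SE 0.14, adjusted p = 0.000933). Rxra, a dimer partner of NR4A1 and NR4A2, fell by 2.45 in LPS-stimulated against unstimulated BMDMs and was higher by 2.71 with tolerance. Of the list, 5 rose and 5 fell in LPS-stimulated against unstimulated, where 24.3% and 26.9% of all genes did. In LPS-primed against unstimulated, 2 rose and 1 fell, where 12.1% and 13.1% of all genes did. In LPS-tolerant against LPS-stimulated, 5 rose and 2 fell (16.2% and 18.3% of all genes). In LPS-tolerant against LPS-primed BMDMs 2 rose (3.6% of all genes). The second response minus the first was called positive in 3 and negative in 3, where 10.5% and 13.3% of all genes were. With carboplatin, edgeR, DESeq2 and limma-voom called 0 of 16 in either state, with 0 and 1 genes at an unadjusted p under 0.05 in LPS-primed and LPS-tolerant BMDMs, and the log2FC of Nab2 was 0.18 and 0.00. With the replicate block, 0 of 16 were called in LPS-primed and 2 in LPS-tolerant BMDMs, where 890 and 784 of 11305 genes were.

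Of genes described as EGR or NR4A targets, 18 of 19 were tested. In LPS-stimulated against unstimulated BMDMs 12 rose, among them Tnf at 6.74 and Id1 at 5.01, and 1 fell, where 24.3% and 26.9% of all genes did. The median log2FC of the list was 3.20 against -0.09 over all genes. In LPS-tolerant against LPS-stimulated BMDMs 6 rose, among them Thbs1 (thrombospondin 1) at 3.46, where 16.2% of all genes did. Of the list, 8 fell, among them Icam1, an adhesion molecule, at -3.52, where 18.3% did, and the median was -0.87 against 0.00. In LPS-primed against unstimulated BMDMs 8 rose and 4 fell, where 12.1% and 13.1% of all genes did. From LPS-primed to LPS-tolerant 5 rose, led by Id1 at 4.55 and Tnf at 2.92, where 3.6% did. The second response minus the first was called positive in 1, Rgs2, where 10.5% of all genes were. It was called negative in 9, among them Icam1 at -4.84 and Tnf at -3.82, where 13.3% of all genes were. Among cells given carboplatin 3 rose from LPS-primed to LPS-tolerant, led by Id1 at 3.28, where 1.29% of all genes did. With carboplatin against without, edgeR called 0 of 18 in either state, with 2 and 0 genes at an unadjusted p under 0.05 in LPS-primed and LPS-tolerant BMDMs, DESeq2 called 1 and 0, and limma-voom called 0. With the replicate block, 2 of 18 were called in LPS-primed and 2 in LPS-tolerant BMDMs, where 890 and 784 of 11305 genes were. Rgs2 and Nab2 stand in 2 of the lists, and many genes in the lists also respond to other factors.

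The genes whose pattern over the 18 samples was most like each member are given as a description, since the samples share 6 groups and, within a replicate number, a common deviation. For Nr4a3 these were Phldb1, Noct and Bzw2, with Pearson r of 0.98, 0.97 and 0.96 on log2 CPM, and for Egr2 Frmd6, Mamld1 and Klhl25 with r of 0.96, 0.96 and 0.95. For Nr4a1 they were Cd207, Cyth2 and Irf5 (r of 0.92, 0.89 and 0.88), and for Egr1 Id3, Igsf11 and Flna (0.88, 0.82 and 0.82). Nr4a2 had the weakest, with Pdhb, Brd2 and Rps27l at 0.79, 0.77 and 0.76. Among the members, Nr4a3 and Egr2 were the most alike (r of 0.88) and Nr4a2 and Egr2 the least (0.13). Counts near 0 in Nr4a2 and Nr4a3 make these values coarse.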

How the data were processed

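Total RNA of BMDMs from 18 samples was sequenced as stranded mRNA libraries. The authors aligned reads to GRCm39 with HISAT2 and deposited raw counts of reads per gene from HTSeq-count, with no normalization. The program versions, gene annotation and strand option are not given in the sources used here, so reads of overlapping genes may be split differently. HTSeq's summary lines (26.5 to 33.1% of reads without a feature) were left out. Here, edgeR 4.0.16 in R 4.3.3 was fitted to all 18 samples with TMM scaling and 6 group means after a filter (filterByExpr, at least 10 reads, 15 in total), leaving 11305 of 22852 genes, and each comparison used the quasi-likelihood test with Benjamini-Hochberg adjustment over all of them. Thresholds were an adjusted p of 0.05 for LPS and 0.25 for carboplatin, as in the study, without its log2FC limit of 2. A group with at most 3 reads in every sample was at the floor, and a fold against a group at 0 is a bound against 3 reads per library. Levels per kilobase used GENCODE vM39 canonical transcripts. DESeq2 1.42.0, limma-voom 3.58.1, other scalings, filters and samples were alternatives, and the fit was tested on simulated data.

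The members and gene lists were chosen with earlier results of these data known. Named from each list were at most 3 genes in each direction with the largest log2FC among those called, plus Nab1, Nab2 and, for each member, the 3 genes most correlated with it. An item that this rule names is not reported here. Deviations of samples with the same replicate number from their group means correlated in every pair of groups compared directly. Their mean r was 0.28 to 0.51 and the lowest 0.18. Among the groups of the second against the first LPS response, r went down to 0.117 for unstimulated with LPS-tolerant. For LPS-primed with LPS-stimulated it was 0.302, 0.201 and 0.0631. The numbers were therefore taken to pair samples, with less certainty in the comparison of the second with the first LPS response. The main fits held no replicate block, so their p-values leave this pairing out, and fits with the block are given as an alternative. Replicates differed by more than counting noise (chi-square per degree of freedom 16.8 to 65.3). The sources call them biological replicates without naming animals, so p-values measure the spread between these samples. Intervals from counts cover counting error only.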

Additional observations from a re-analysis of the deposited data

Results flagged for a closer look

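The difference between the second and the first LPS response of Egr2 was -2.20 on the log2 scale (SE 0.68, 95% interval -3.64 to -0.76, adjusted p = 0.0263 from edgeR), and it is given here because this test of the difference between the responses passed. It did not pass with limma-voom (-2.22, adjusted p = 0.108) or without 1 of 5 single libraries (adjusted p 0.0507 to 0.0772), and the second dose came with a medium change that cannot be told apart from it. Egr2 went from 42.9 ± 15.3 to 630.4 ± 344.2 normalized counts without priming and from 5.92 ± 0.81 to 19.0 ± 6.79 after priming (SD, n = 3). The LPS-primed level rested on 5, 6 and 6 reads.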

How the results depend on the processing

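Of 5 tested members, the number called changed with the fit as follows. In LPS-primed against unstimulated BMDMs it was 2, against 0 when 10 reads were required in every sample and 1 with limma-voom. In LPS-stimulated against unstimulated it was 5, against 4 with library size alone, no filter or only the groups compared, 3 with the 10-read filter, 3 with limma-voom and 2 with the log2FC limit. In LPS-tolerant against LPS-stimulated it was 2, against 1 with the 10-read filter. In LPS-tolerant against LPS-primed it was 2 (407 of 11305 genes higher), against 0 with the 10-read filter and 0 with limma-voom (405 genes higher). With DESeq2 it was 4 (637 genes higher) and with the replicate block 4 (1093 genes higher). For carboplatin in LPS-primed BMDMs, a count that the choice of the set used and from which nothing is read, it was 1, against 0 with library size alone, no filter, the 10-read filter, limma-voom or only the groups compared, and 2 with the replicate block. From LPS-primed to LPS-tolerant with carboplatin it was 0, against 1 with no filter, 3 with DESeq2 and 3 with the replicate block. For the second against the first LPS response it was 1, against 0 with the 10-read filter and 2 with the replicate block. In the block fit Egr2 had -2.11 (adjusted p = 0.00389) and Nr4a1 1.89 (adjusted p = 0.0326). Pairing is less certain there, with r of 0.0631 for LPS-primed with LPS-stimulated in replicate 3. The 10-read filter removed members from the test, and the cause of the other changes was not tested. The block changed no other member's call except Nr4a1 in LPS-tolerant against LPS-stimulated.

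Leaving out 1 library, or replicate 1 of every group, gave 1 to 2, 2 to 5, 0 to 1, 0 to 0 and 0 to 2 calls for LPS-primed against unstimulated, LPS-stimulated against unstimulated, LPS-tolerant against LPS-primed, carboplatin in LPS-primed BMDMs and the second against the first response, where 2 calls came from the fit without replicate 1 of any group and single libraries gave 0 to 1. The Nr4a2 call in LPS-stimulated against unstimulated was lost with library size alone (adjusted p = 0.0992) and no filter (0.0614).

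The ranges below are over the same fits. Changes of sign were found only in log2FC that did not pass. In LPS-primed against unstimulated, Nr4a2 was 0.02, against -0.20 with library size alone, -0.26 with limma-voom and -0.58 to 0.58 over these fits (up to 0.49 with 1 library left out), and Egr1 ranged from -0.42 to 0.18. In LPS-tolerant against LPS-stimulated, Egr1 was 0.22 with limma-voom and ranged from -0.54 to 0.98 (up to 0.88 with 1 library left out), and Nr4a2 from -0.78 to 0.090. For carboplatin in LPS-primed BMDMs, Egr1 was -0.043 with limma-voom and ranged from -0.48 to 0.44. For carboplatin in LPS-tolerant BMDMs, Nr4a1 ranged from -0.66 to 1.04, Nr4a3 from -1.23 to 0.34 and Egr2 from -0.35 to 0.16. From LPS-primed to LPS-tolerant with carboplatin, Nr4a2 was -0.062 with library size alone, -0.0069 with no filter, -0.010 with the 10-read filter, -0.062 with limma-voom and -0.025 with the replicate block, and ranged from -0.31 to 0.25. In the second against the first response, Nr4a2 ranged from -0.995 to 0.077 and Egr1 from -0.33 to 1.38 (up to 1.10 with 1 library left out).

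Library size alone moved the median log2FC of all genes to -0.26, -0.43, -0.11 and 0.30 in LPS-primed and LPS-stimulated against unstimulated, LPS-tolerant against LPS-primed and the second against the first response, so that 932 genes were higher and 2598 lower (1370 and 1477 with TMM), 1847 and 4636 (2749 and 3040), 296 and 476 (407 and 306) and 1862 and 1078 (1190 and 1501). For carboplatin in LPS-tolerant BMDMs it gave 38 and 111 (27 and 160). Genes called for carboplatin in LPS-primed and LPS-tolerant BMDMs were 136 and 187, against 307 and 313 with DESeq2, 890 and 784 with the block, 100 and 104 with limma-voom, 104 and 82 with only the groups compared, and 45 to 152 and 61 to 231 without 1 library. From LPS-primed to LPS-tolerant they were 713 without and 224 with carboplatin, against 1128 and 516 with DESeq2, 2034 and 1040 with the block, 454 and 129 with only the groups compared, and 330 to 506 and 75 to 160 without 1 library. The block also gave 4367 genes in LPS-primed against unstimulated (2847 without it) and 4091 in the second against the first response (2691). Depth limited Nr4a2, Nr4a3 and Egr3 most. The fit without replicate 1 of any group was chosen after seeing the data.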

Other observations

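All 6 members were highest in replicate 1 among the LPS-stimulated samples, and Nr4a1 was highest in replicate 1 in 5 of 6 groups and Nr4a3 in all 3 groups in which it was above the floor. Egr1 did not share this, with replicates 1, 2 and 3 each the highest in 2 groups.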
